A study of Mus musculus with 18 samples.

Results

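Regulatory T cells (Treg) from mice carrying floxed Mef2d were compared with wild-type Treg, 3 libraries against 3, chosen by the genotype label and making up 6 of the 18 RNA libraries of the series. The other 12 libraries carry the labels Dyrk1, HDAC1, HDAC2 and Mef2c deletion, with 3 libraries each, and serve to show where the Mef2d-labelled libraries differ from them and, in the fit, to estimate the spread between replicates (1813 genes pass against wild type with the 6 libraries alone and 2677 with all 18). Wild type means the Foxp3-YFP-cre allele alone. The Mef2d group has both copies of Mef2d floxed (Mef2d-fl/fl) together with Foxp3cre, so all groups share the cre allele, which is under Foxp3 control. In which cells it cut was not tested. All mice were males aged 6 to 8 weeks, and a CD4 column enriched the T cells, which were then sorted by the YFP that marks Foxp3 expression. The protocol for the mice also describes them as lacking Rcor1, a gene that no sample label carries. The series text calls the 3 replicates of a group independent and biological.

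MEF2D belongs to the MEF2 family of transcription factors, whose members MEF2A, MEF2B, MEF2C and MEF2D bind an A- and T-rich DNA motif. Class IIa histone deacetylases hold MEF2 proteins in a repressive state, and calcium signals, calcineurin and the acetyltransferase p300 switch them to activation. In T cells MEF2 factors act downstream of the T cell receptor, and in Treg MEF2D has been tied to genes of effector function such as Icos, Ctla4 and Il10.

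Levels are FPKM, a count of fragments scaled to gene length and library depth, a unit read from the values because nothing deposited names it. Changes are differences of log2(FPKM + 1) with their standard error (SE). A gene passed where its limma p-value, adjusted by Benjamini-Hochberg over the 12223 genes tested, was under 0.05. Depth, estimated from the FPKM that 1 read is worth, was 18.5 to 20.6 M reads in wild type (M, mega), 15.9 to 22.5 M reads in the Mef2d group and 18.3 to 24.1 M reads in the other 12 libraries. In bulk RNA, fewer cells of a type and less RNA per cell cannot be told apart.

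Treg markers were present in all 6 libraries. Foxp3, the factor that defines Treg, was at 92.7, 106 and 88.0 FPKM in wild type and at 112, 114 and 118 FPKM in the Mef2d group, which did not pass (log2 0.27, SE 0.10, limma adjusted p 0.0796). Cd4 was at 225 to 243 FPKM in wild type and 247 to 255 FPKM in the Mef2d group. Markers of B cells were present too: the 17 tested summed to 262, 245 and 410 FPKM in wild type and to 763, 232 and 385.5 FPKM in Mef2d replicates 1, 2 and 3. None of the 17 was at 0 in all 6 libraries, 0 of them passed, and their median log2 change was 0.86, falling to 0.50 without Mef2d replicate 1. Because that library stands apart, results are also given without it. The wild-type libraries stand apart in another way. Gm42418, an RNA that overlaps ribosomal RNA sequence, was at 3024, 2008 and 2344 FPKM there, at 351, 450.3 and 339 FPKM in the Mef2d group and at 379 to 1351 FPKM in the other 12 libraries. Counts with the B cell marker mean as a covariate, and without the 3 libraries richest in these markers, are given among the alternatives at the end. How much of any change B cell RNA or ribosomal carry-over accounts for was not tested.

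The gene named by the label was not lower in the labelled libraries. Mef2d (ENSMUSG00000001419, chromosome 3, 88142372 to 88172086, plus strand, GRCm38) was at 40.9, 46.6 and 37.5 FPKM in wild type and at 53.4, 53.9 and 52.8 FPKM in the Mef2d group. The 2 groups did not overlap, and Mef2d rose by a log2 change of 0.35 (SE 0.08, limma adjusted p 0.00718). It passed under each of the 18 alternatives tried, at 0.28 to 0.44. Group means in the other labels ran from 37.9 FPKM (Dyrk1) to 49.9 FPKM (HDAC2), and the difference from their mean also passed (log2 0.22, SE 0.06, adjusted p 0.0489). The FPKM values cover the whole gene, including exons that are not floxed, so they do not by themselves check the deletion, and the libraries are called Mef2d-labelled from here on.

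Its paralog Mef2a (ENSMUSG00000030557, chromosome 7, 67231163 to 67372858, minus strand) was at 11.8, 13.2 and 10.9 FPKM in wild type and at 16.0, 15.8 and 14.7 FPKM in Mef2d-labelled libraries. Mef2a rose by 0.35 (SE 0.08, limma adjusted p 0.00814), again with no overlap, but did not pass once trends on gene length and GC content were removed (log2 0.13, adjusted p 0.176) or against the other deletion labels (log2 0.17, adjusted p 0.141). Mef2c was low, at 0.302 to 0.571 FPKM in wild type and 0.772 to 2.81 FPKM in Mef2d-labelled libraries, with the top value in replicate 1, and did not pass (adjusted p 0.329). Mef2b was below the minimum level for testing. Of 26 tested genes for MEF2 factors and their partners 6 rose and 0 fell, beside 13.9% of all genes that rose. Their median exon length was 8794.5 bases, in the class over 8000 bases where 33.6% of all genes rose. The counts were 5 and 0 without Mef2d replicate 1 (7.18% of all genes rose). With length and GC trends taken out they were 3 and 1, beside 10.8% of all genes that rose and 8.39% that fell. The median log2 change of the list was 0.14 against 0.038 over all genes. Among the listed genes, the acetyltransferase gene Ep300 went from 21.01, 21.1 and 18.3 to 30.8, 29.1 and 26.7 FPKM (log2 0.50, SE 0.11, adjusted p 0.00513). The class IIa deacetylase gene Hdac4 went from 5.07, 5.64 and 5.65 to 8.79, 6.86 and 7.44 FPKM (log2 0.43, SE 0.10, adjusted p 0.00852) and did not pass after the length and GC correction (adjusted p 0.0728).

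**Figure D1:**
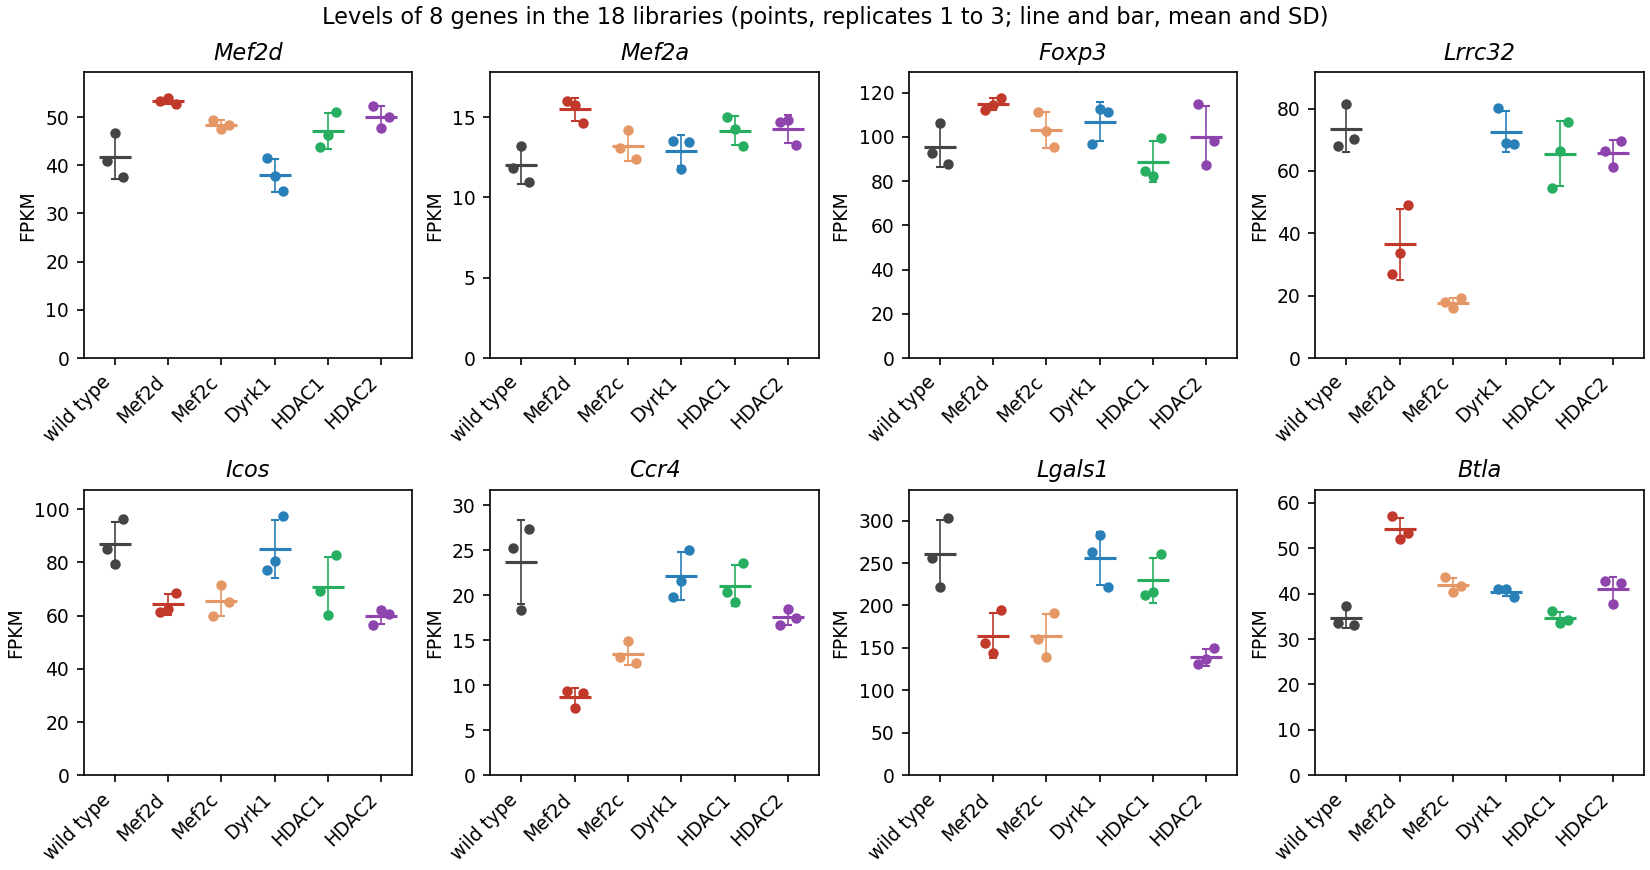
FPKM (vertical axes, starting at 0) of 8 genes in the 18 libraries, grouped by label, with each point a library and the line and bar the mean and SD of 3. Mef2d is higher in Mef2d-labelled than in wild-type libraries, Lrrc32 is lowest in Mef2c-labelled and next in Mef2d-labelled libraries, Ccr4 is lowest and Btla highest in Mef2d-labelled libraries, and Icos and Lgals1 lie below wild type in several labels.

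The Mef2a promoter is printed because it holds the MEF2 core motif, which is CTA, then 4 bases that are each A or T, then TAG, and reads the same on both strands. The 108 bases run from 100 bases before the RefSeq transcription start to 8 bases into the transcript (chr7:67372851-67372958, minus strand, GRCm38.p6), 5′ to 3′, and the capitals mark the core.
Mef2a: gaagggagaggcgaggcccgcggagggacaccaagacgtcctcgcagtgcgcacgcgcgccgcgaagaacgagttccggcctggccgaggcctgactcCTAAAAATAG
The core starts 2 bases before the start site. Across the promoter windows of 300 bases that RefSeq gave for 8869 tested genes, 36 genes (0.406%) held the core. It was found for 4 of 1248 genes that rose (0.321%) and 3 of 721 that fell (0.416%), and in 183 of all 32851 windows (0.557%). The match describes the letters and shows no binding. Over all genes 13.9% rose and 7.95% fell against wild type. Of 15 tested genes listed as MEF2 targets in earlier work, 0 rose and 2 fell, 0 and 0 without Mef2d replicate 1 or replicate 2. Those that fell were Icos, a costimulatory receptor, and Rhob, a small GTPase gene that went from 15.7, 18.6 and 15.1 to 10.95, 10.8 and 9.97 FPKM (log2 -0.59, SE 0.19, adjusted p 0.0362) and did not pass without any 1 of the 6 libraries. Nr4a1, a nuclear receptor gene induced through the T cell receptor, was at 83.3, 121 and 81.8 FPKM in wild type and 101, 148 and 147 FPKM in Mef2d-labelled libraries, overlapping values that did not pass (adjusted p 0.167).

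Across the transcriptome, 2677 of 12223 genes passed against wild type (21.9%), 1705 higher (13.9%) and 972 lower (7.95%). Without Mef2d replicate 1 the count was 1359 (11.1%), 878 higher (7.18%) and 481 lower (3.94%), and 1321 of the 2677 passed in the same direction. The count was 1644 (1112 higher, 532 lower) when Mef2d replicate 2 was left out and 2178 (1385 higher, 793 lower) without replicate 3. Without wild-type replicate 1 it was 1878 (1246 higher, 632 lower), and without wild-type replicate 3 it was 1077 (715 higher, 362 lower). List counts that leave out the same library are to be read beside these. Scaling libraries by the median of ratios changed the split from 63.7% higher to 47.6% higher (1222 higher, 1345 lower), and the median change of all genes from 0.038 to -0.0035. Genes with more exon sequence were more often higher: over 8000 bases 33.6% rose and 3.06% fell, while from 1000 to 2000 bases 4.81% rose and 11.2% fell. Against the mean of the other 4 deletion labels 696 genes passed (5.69%), 341 higher (2.79%) and 355 lower (2.9%), with 482 (3.94%) left without Mef2d replicate 1, 350 without replicate 2 and 463 without replicate 3. Against Mef2c-labelled libraries alone 374 passed (3.06%), 178 higher (1.46%) and 196 lower (1.6%), and 243 without Mef2d replicate 2. The 3 comparisons share the Mef2d-labelled libraries.

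Rises and falls, 12 each way, were named by size among genes that passed with and without Mef2d replicate 1, reached a mean of 5 FPKM and had groups that did not overlap. Pseudogenes, predicted genes and segments of T cell receptor and immunoglobulin genes were left out of this naming, which took the genes that met these conditions from 681 to 611 on the higher and from 336 to 315 on the lower side, and some of those left out changed more. Groups did not overlap for 25.9% of all genes on the higher and 16.3% on the lower side. Orm2, an acute-phase plasma glycoprotein gene of the orosomucoid family (ENSMUSG00000061540, chromosome 4, 63362449 to 63365878), led the named rises. It was at 2.69, 2.46 and 2.37 FPKM in wild type and at 39.5, 33.6 and 29.9 FPKM in Mef2d-labelled libraries (log2 3.32, SE 0.13, limma adjusted p 1.7e-10). Mef2c-labelled libraries were at 27.5 to 29.6 FPKM, just below all 3 Mef2d-labelled ones, and the other 9 libraries were at 3.38 to 5.73 FPKM.

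A set of further rises had levels in Mef2c-labelled libraries close to those in Mef2d-labelled ones. Pstpip2, an adaptor of the actin cytoskeleton that restrains inflammation, went from 3.16, 1.77 and 1.74 to 19.4, 20.9 and 19.4 FPKM (log2 2.72, SE 0.22, adjusted p 1.11e-06), with 16.4 ± 0.352 FPKM (SD, n = 3) in the Mef2c group. Gpr137b, which encodes a lysosomal membrane protein and has an annotated pseudogene copy nearby that can take its reads, went from 0.651, 0.760 and 0.616 to 6.51, 4.11 and 4.69 FPKM (log2 1.85, SE 0.18). Rab4a, a GTPase of endosome recycling, went from 2.63, 2.83 and 2.81 to 7.002, 8.77 and 9.03 FPKM (log2 1.29, SE 0.16). Inppl1, which encodes the lipid phosphatase SHIP2, went from 6.39, 6.82 and 6.66 to 18.1, 16.5 and 13.9 FPKM (log2 1.16, SE 0.11). In each of these 4 genes all 3 Mef2d-labelled libraries lay above all 3 wild-type libraries, as the naming required. The direct difference of each from Mef2c-labelled libraries did not pass (limma adjusted p 0.628 to 0.97).

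Receptors and regulators of immune cells were among the other rises. Il18r1, the ligand-binding chain of the interleukin-18 receptor, went from 22.4, 19.9 and 19.8 to 53.2, 46.0 and 48.1 FPKM (log2 1.21, SE 0.12, limma adjusted p 9.32e-06). The mean was 48.1 FPKM in Mef2c-labelled libraries and 26.4 to 33.9 FPKM in the other labels, and the difference from the 4 labels together passed (log2 0.52, adjusted p 0.00231). Fcrl1, a receptor gene best known from B cells, went from 3.25, 3.37 and 3.01 to 16.9, 11.8 and 13.6 FPKM (log2 1.83, SE 0.28, adjusted p 0.000709, and 0.0057 without replicate 1). The part of B cell RNA in the level of Fcrl1 was not tested. Lyst, which regulates lysosome size, and Kmt2a, a histone H3K4 methyltransferase, were above wild type in the other deletion labels too: Lyst rose by 1.25 (SE 0.19) and Kmt2a by 1.19 (SE 0.19) against wild type, while neither passed against the other labels (adjusted p 0.255 and 0.664). Tspoap1, Tmie and Utf1 complete the 12 named rises, with log2 changes of 1.70, 1.51 and 1.32.

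Several of the named falls were of genes close to 0 in the Mef2d-labelled libraries. Crabp2, a carrier of retinoic acid (ENSMUSG00000004885, chromosome 3, 87948666 to 87953376), was at 29.9, 40.0 and 15.5 FPKM in wild type and at 0.333, 0.202 and 0.320 FPKM in Mef2d-labelled libraries (log2 -4.42, SE 0.85, limma adjusted p 0.00305). Crabp2 was also under 1 FPKM in all 3 Mef2c-labelled and all 3 Dyrk1-labelled libraries and in 1 HDAC1-labelled library, while the other 2 of that label were at 16.2 and 20.4 FPKM.

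Antiviral TRIM genes of chromosome 7 fell with a split among replicates. Trim12a was at 23.9, 24.7 and 22.3 FPKM in wild type and at 0, 0 and 6.57 FPKM in Mef2d replicates 1, 2 and 3 (log2 -3.65, SE 0.51, limma adjusted p 0.000355). Trim5 was at 14.0, 12.8 and 11.53 FPKM against 0.0364, 0 and 3.28 FPKM, and Trim30d at 8.79, 11.47 and 11.49 FPKM against 0.243, 0.0191 and 3.72 FPKM (log2 -3.07 and -2.66). In each of the 3 genes replicate 3 lay between the other 2 Mef2d-labelled libraries and wild type, and Mef2c-labelled libraries averaged 0.0268, 0.0641 and 0.171 FPKM. These family members are near-identical in places, so reads may be split among them. Lrrc32 (ENSMUSG00000090958, chromosome 7, 98489283 to 98502181), which encodes GARP, the receptor that holds latent TGF-beta on the Treg surface, lies on the same chromosome. It was at 68.1, 81.6 and 70.4 FPKM in wild type and 26.8, 33.8 and 49.1 FPKM in Mef2d-labelled libraries, a fall of -1.02 (SE 0.17, adjusted p 0.00108) in which replicate 3 was again nearest to wild type. Mef2c-labelled libraries were lower still at 17.7 FPKM on average (direct difference 0.97, SE 0.17, adjusted p 0.00302), and the other labels averaged 65.6 to 72.6 FPKM.

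The remaining large falls were of histone genes and of regulators. Hist1h4c went from 7.49, 4.33 and 6.55 to 0.112, 0 and 0.126 FPKM (log2 -2.70, SE 0.20), and Hist1h3c and Hist1h4i fell by 2.00 and 1.84 on the log2 scale. Mef2c-labelled libraries were as low, at 0 to 0.254 FPKM for Hist1h4c, 0.924 to 1.39 FPKM for Hist1h3c and 2.42 to 3.53 FPKM for Hist1h4i. Histone copies are near-identical, which makes the level of each uncertain. Batf3, an AP-1 family factor, went from 8.92, 6.35 and 11.97 to 2.18, 0.971 and 3.14 FPKM (log2 -1.73, SE 0.30, limma adjusted p 0.00161). Levels of Batf3 were 1.54 to 3.27 FPKM in Mef2c-labelled, 1.76 to 3.70 FPKM in HDAC2-labelled and 3.05 to 6.32 FPKM in Dyrk1-labelled and HDAC1-labelled libraries. Gsta4, a glutathione transferase gene, went from 26.9, 25.8 and 27.7 to 5.84, 8.21 and 9.81 FPKM (log2 -1.66, SE 0.21), and Dyrk1-labelled libraries were lower, at 4.45 FPKM on average.

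**Figure D2:**
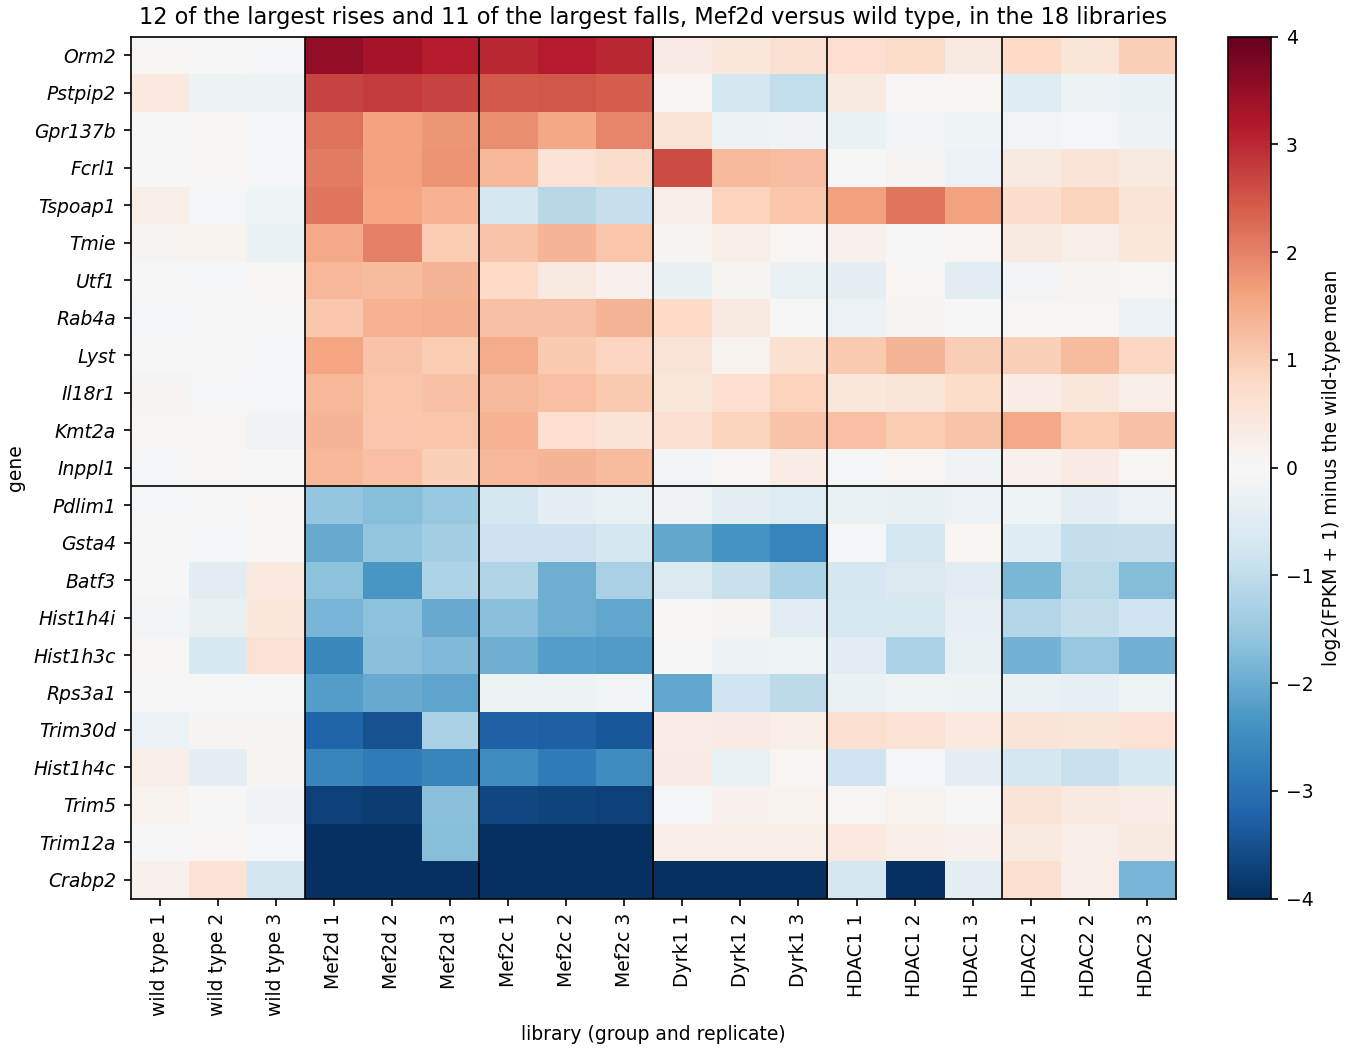
The 12 named rises (upper rows) and 11 of the 12 named falls (lower rows) in the 18 libraries (columns), coloured by log2(FPKM + 1) minus the wild-type mean, with the scale ending at -4 and 4. Mef2c-labelled libraries carry colours like those of the Mef2d group for Orm2, Pstpip2, Inppl1 and the Trim genes but not for Rps3a1, Pdlim1 and Tspoap1.

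2 ribosomal protein genes fell while processed pseudogenes of each rose. Rps3a1, a gene of the small ribosomal subunit (ENSMUSG00000028081, chromosome 3, 86137940 to 86142702), was at 1997, 1947 and 1972 FPKM in wild type and at 424, 488 and 459.5 FPKM in Mef2d-labelled libraries (log2 -2.11, SE 0.21, limma adjusted p 1.64e-05). Its pseudogene Rps3a3 on chromosome 13 was at 1.95, 1.45 and 1.22 FPKM in wild type and at 740.5, 766 and 864 FPKM in Mef2d-labelled libraries (log2 8.29, SE 0.29). Rps3a3 was also high in Dyrk1-labelled libraries, at 867, 441.5 and 276 FPKM, and at 1.20 to 2.82 FPKM in the remaining 9. A further processed pseudogene, Rps3a2 on chromosome 14, went from 4.35, 4.06 and 5.52 to 168, 154 and 162 FPKM (log2 4.85, SE 0.27, adjusted p 1.48e-08), and Dyrk1-labelled libraries were at 61.4 to 187 FPKM. Rplp0, a gene of the ribosomal stalk, went from 2682, 2512 and 3000.4 to 1323, 1395 and 1372 FPKM (log2 -0.9985, SE 0.09, adjusted p 2.81e-06). Its pseudogene Gm8730 on chromosome 8 went from 4.47, 3.93 and 4.47 to 769, 756 and 795 FPKM (log2 7.20, SE 0.12), was at 712 to 866 FPKM in Mef2c-labelled libraries and at 2.91 to 5.50 FPKM in the other 9. Rps3a2, Rps3a3 and Gm8730 were singled out after their values were seen.

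A stretch of each pair is printed to show how alike the copies are, since reads can be assigned to either. The lines are 100 bases of transcript in the sense direction, 5′ to 3′, from GENCODE on GRCm38, and capitals mark the bases at which the copies differ.
Rps3a1 (chr3:86141327-86141426, minus strand): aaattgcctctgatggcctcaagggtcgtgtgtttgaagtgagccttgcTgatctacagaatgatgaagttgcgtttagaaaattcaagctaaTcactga
Rps3a3 (chr13:108670769-108670868, plus strand): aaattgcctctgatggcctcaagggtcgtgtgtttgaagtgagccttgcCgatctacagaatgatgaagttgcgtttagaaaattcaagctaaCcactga
Rplp0 (chr5:115561128-115561227, plus strand): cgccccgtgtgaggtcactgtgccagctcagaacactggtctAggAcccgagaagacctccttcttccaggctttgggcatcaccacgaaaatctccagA
Gm8730 (chr8:102865352-102865451, minus strand): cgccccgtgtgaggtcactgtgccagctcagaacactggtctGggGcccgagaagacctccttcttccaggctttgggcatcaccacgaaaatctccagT
Counted from 1 at the first base shown, the copies differ by T50C and T94C in the Rps3a1 pair and by A43G, A46G and A100T in the Rplp0 pair, with the base of the parent gene first. Over the full aligned copy, 786 of 795 bases (98.9%) of Rps3a3 and 942 of 954 (98.7%) of Gm8730 were identical to the parent. The levels of gene and copy are therefore uncertain, and a reading of either as transcription of that locus was not tested. Of 477 tested pseudogenes 56 were higher and 23 lower than wild type, beside 13.9% and 7.95% of all genes.

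**Figure D3:**
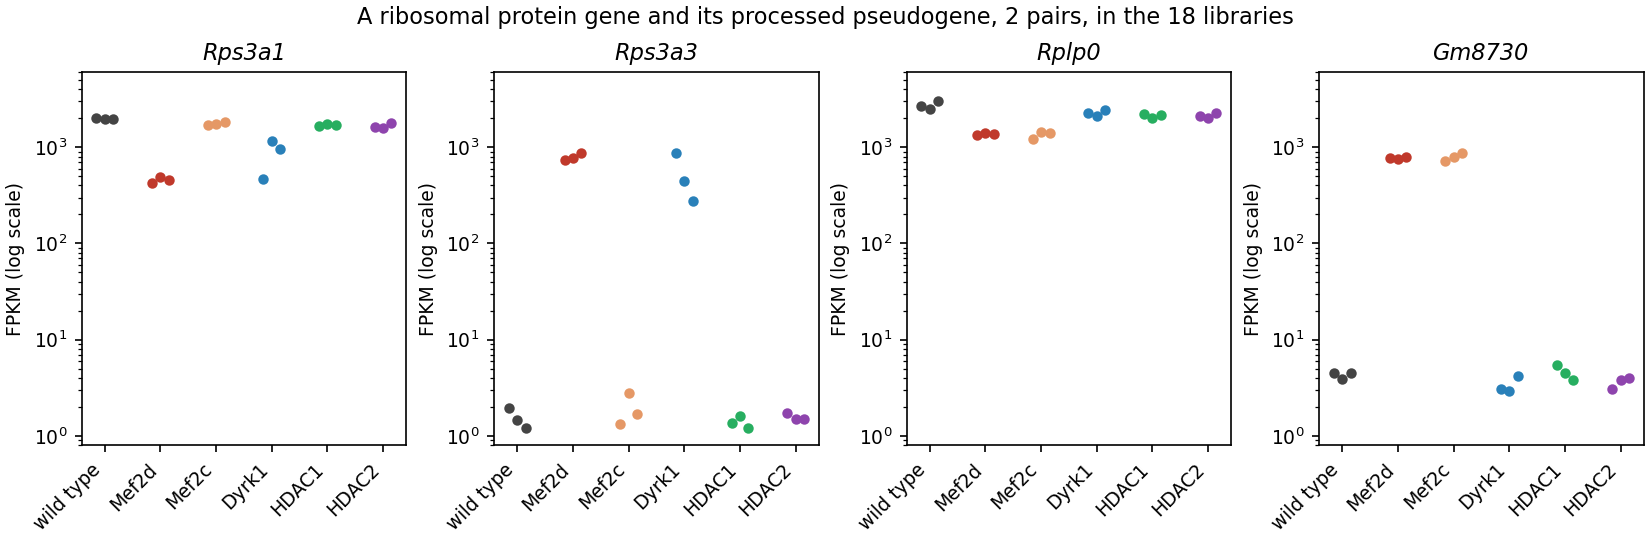
FPKM on a log axis of Rps3a1, Rps3a3, Rplp0 and Gm8730 in the 18 libraries, each point a library. Rps3a3 is far above its level elsewhere in Mef2d-labelled and Dyrk1-labelled libraries, where Rps3a1 is lowest, and Gm8730 is far above its level elsewhere in Mef2d-labelled and Mef2c-labelled libraries, where Rplp0 is lowest.

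Genes near Mef2d on chromosome 3 passed more often than genes elsewhere. Within 20 Mb of Mef2d 82 of 286 tested genes passed against wild type (28.7%, 49 higher and 33 lower), compared with 21.7% elsewhere. Against the other deletion labels 34 of the 286 passed (11.9%, 17 each way), compared with 5.55% elsewhere, and without Mef2d replicate 1 the shares were 8.39% and 3.84%. Against Mef2c-labelled libraries the shares were 8.74% and 2.92%. These shares are a description and were not tested.

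Individual neighbours differed in how far they set the Mef2d group apart. Crabp2, Fcrl1 and Rps3a1, whose changes are given above, are also within 20 Mb of Mef2d. They start at 87948666, 87376387 and 86137940 on chromosome 3. Slc22a15, a transporter gene (chromosome 3, 101855776 to 101924453), was at 3.28, 3.28 and 3.54 FPKM in wild type and 6.40, 5.59 and 6.53 FPKM in Mef2d-labelled libraries (log2 0.71, SE 0.08, limma adjusted p 4.27e-05). The 12 libraries of the other labels lay at 2.78 to 4.34 FPKM, all below the Mef2d-labelled ones, and the difference from them was 0.73 (SE 0.06, adjusted p 2.93e-06). Dclk2, a kinase gene of the doublecortin family (chromosome 3, 86786151 to 86920852), went from 3.64, 3.48 and 3.80 to 7.66, 7.31 and 8.64 FPKM, but Dyrk1-labelled libraries were as high at 8.13 FPKM on average. Kcna3, a potassium channel of T cells, rose by 0.75 (SE 0.18, adjusted p 0.00977), did not pass without wild-type replicate 3 (adjusted p 0.0559) and was at like levels in the other labels. Lmna, a nuclear lamina gene, went from 10.7, 7.31 and 11.52 to 3.67, 4.92 and 4.24 FPKM (log2 -1.02, SE 0.16, adjusted p 0.000751). Levels of Lmna were 3.82 to 5.21 FPKM in HDAC2-labelled, 4.47 to 5.82 FPKM in Mef2c-labelled and 5.47 to 9.06 FPKM in Dyrk1-labelled and HDAC1-labelled libraries.

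**Figure D4:**
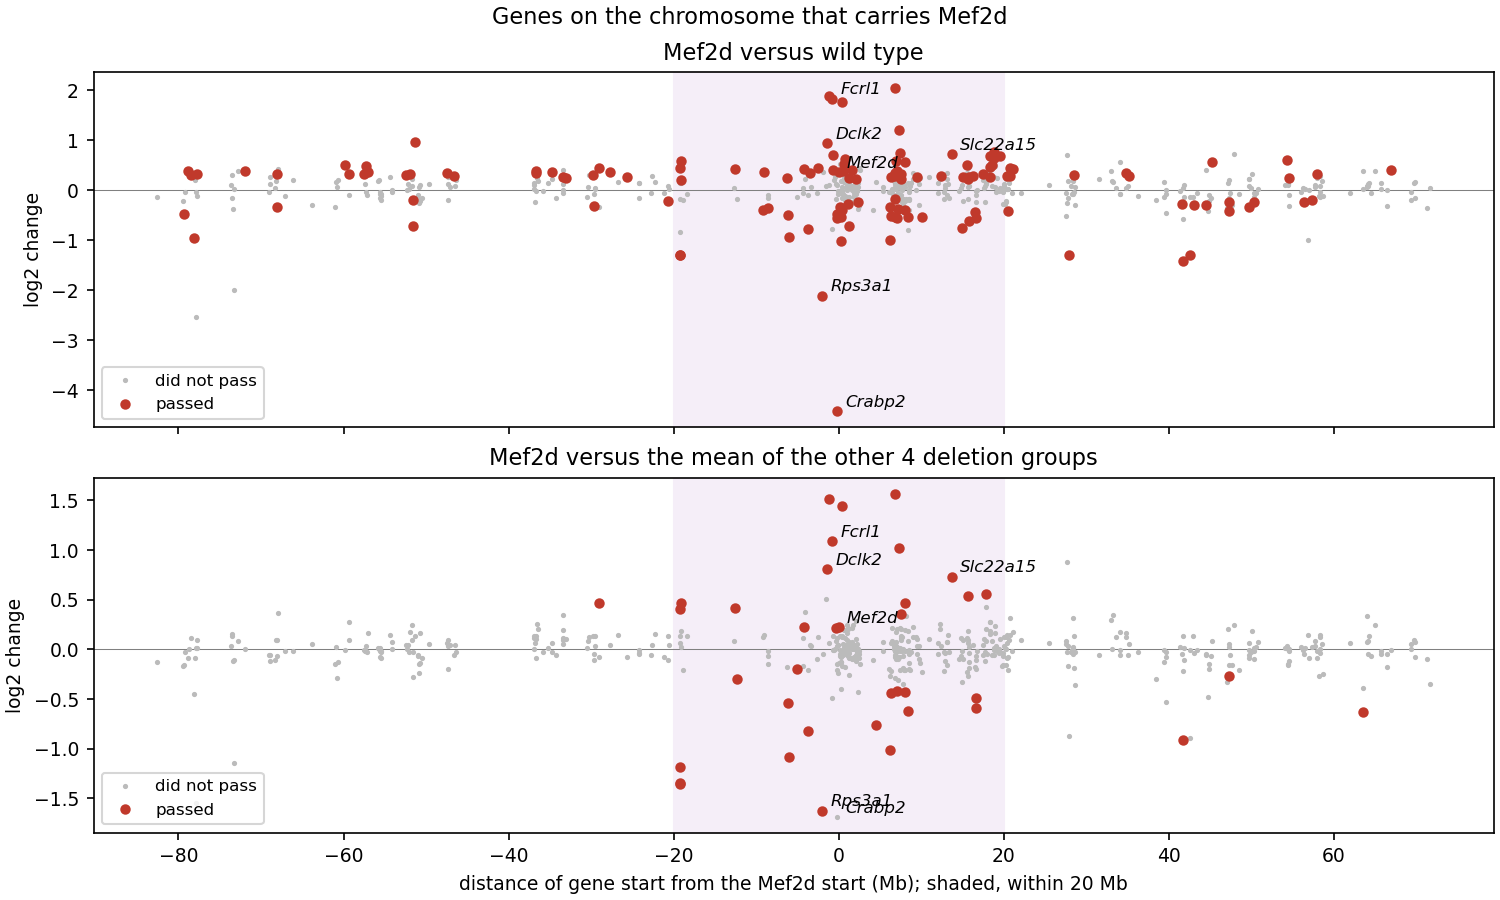
Log2 change (vertical axis) of each tested gene on the chromosome of Mef2d against its distance from Mef2d in Mb, against wild type (upper panel) and against the mean of the other 4 deletion labels (lower panel), red where a gene passed and grey where not. In the lower panel 34 genes inside the shaded 20 Mb on either side passed, while red points are sparse farther out.

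Another stretch, on chromosome 19, held several of the genes that set the Mef2d group apart from every other label. Other windows of 10 Mb had higher shares of calls against the other labels, such as 10 to 20 Mb of chromosome 13 (29.0%). The share was 24.3% from 100 to 110 Mb of chromosome 7. Of 91 tested genes between 40 and 50 Mb of chromosome 19, 29 passed against wild type (31.9%, beside 21.9% of all genes). Against the other labels 13 passed (14.3%, beside 5.69% of all genes), and 9.89% did without Mef2d replicate 1 (3.94% of all genes). Sfxn2, a mitochondrial membrane transporter gene (ENSMUSG00000025036, 46573365 to 46598066), was at 5.89, 6.73 and 6.72 FPKM in wild type and 1.37, 2.00 and 1.38 FPKM in Mef2d-labelled libraries (log2 -1.54, SE 0.10, limma adjusted p 1.27e-07). The other 12 libraries lay at 5.25 to 7.28 FPKM (difference -1.47, SE 0.08, adjusted p 1.18e-08). Pdlim1, a linker of the actin cytoskeleton (ENSMUSG00000055044, 40221173 to 40271842), went from 26.2, 26.8 and 28.4 to 8.56, 7.67 and 8.85 FPKM (log2 -1.59, SE 0.11, adjusted p 2.59e-07), with 16.1 to 24.7 FPKM in the other 12 libraries. As3mt, an arsenic methyltransferase gene (ENSMUSG00000003559, 46707458 to 46741099), went the other way, from 3.68, 4.16 and 4.41 to 9.09, 8.75 and 7.95 FPKM (log2 0.92, SE 0.12, adjusted p 0.000206), and was at 2.48 to 5.62 FPKM in the others. In all 3 genes no library of another group reached the range of the Mef2d-labelled libraries. Genes named by size against the other labels, among them also Slc22a15, Ccr4, Gpr15, Utf1 and Eno3, had to lie beyond all 12 of those libraries. Their lack of overlap with the other labels was therefore set by the choice. Over all genes, the 3 Mef2d-labelled libraries lay above all 12 of the other deletion labels in 0.982% and below all 12 in 0.941%.

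Among receptors of T cells, Ccr4 and Btla lay outside the range of every other library in the Mef2d group. Ccr4, a chemokine receptor that guides Treg to skin and inflamed tissue (ENSMUSG00000047898, chromosome 9, 114490316 to 114504916), was at 25.3, 18.4 and 27.3 FPKM in wild type and at 9.36, 7.48 and 9.15 FPKM in Mef2d-labelled libraries. Ccr4 fell by 1.34 on the log2 scale (SE 0.13, limma adjusted p 1.2e-05, and 7.06e-05 without Mef2d replicate 1). The other 12 libraries lay at 12.5 to 25.0 FPKM, above the Mef2d-labelled ones and partly within the wild-type range, and the difference from them was -0.996 (SE 0.10, adjusted p 1.96e-05). Mef2c-labelled libraries were the next lowest at 13.5 FPKM on average, still above the Mef2d group (difference -0.59, SE 0.13, adjusted p 0.0205). Of 24 tested genes for chemokine receptors and trafficking, 1 rose and 4 fell, which is near the 21.9% of all genes called in either direction, and 2 fell where Mef2d replicate 2 or wild-type replicate 3 was left out. The others that fell were Selplg, a selectin ligand, and the mucosal and skin homing receptors Gpr15 and Ccr10. Gpr15 was at 7.33, 6.20 and 6.40 FPKM in wild type and 3.68, 3.70 and 4.89 FPKM in Mef2d-labelled libraries, with a difference of -0.84 from the other labels (SE 0.14, adjusted p 0.00181), but against wild type did not pass without Mef2d replicate 1 (adjusted p 0.105).

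Btla, an inhibitory receptor of the immunoglobulin superfamily (ENSMUSG00000052013, chromosome 16, 45224315 to 45257670), was at 33.6, 37.3 and 33.2 FPKM in wild type and 57.0, 52.0 and 53.4 FPKM in Mef2d-labelled libraries. The rise of 0.63 (SE 0.06, limma adjusted p 1.21e-05) came without overlap, and the other 12 libraries lay at 33.5 to 43.6 FPKM (difference 0.45, SE 0.05, adjusted p 2.94e-05). Btla is 1 of 12 tested follicular T cell genes, of which 3 rose and 2 fell, beside 13.9% and 7.95% of all genes. Without Mef2d replicate 1, 1 rose and 1 fell, and 0 fell without Mef2d replicate 2 or wild-type replicate 3. Of all 12223 genes 878 rose and 481 fell without Mef2d replicate 1. Without Mef2d replicate 2 or wild-type replicate 3, 532 and 362 fell. Utf1, a chromatin protein gene of stem cells (ENSMUSG00000047751), also set the group apart, at 9.07, 8.81 and 9.31 FPKM against 2.79 to 3.25 FPKM in wild type and 2.03 to 6.04 FPKM in the other 12 libraries (difference 1.30, SE 0.13, adjusted p 9.54e-06). Eno3, a muscle enolase gene, was at 10.3, 12.7 and 13.0 FPKM against 25.2, 26.0 and 28.2 FPKM in wild type and 13.9 to 35.5 FPKM in the others (difference -0.86, SE 0.11, adjusted p 0.000111).

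Against Mef2c-labelled libraries alone, Rps3a3 and Rps3a2 differed by 8.09 and 5.13, while 6 of the 10 genes named by size, with pseudogenes and predicted genes left out as above, did not pass against wild type. Slfn8, a Schlafen family gene, was at 44.4, 36.7 and 38.3 FPKM in Mef2d-labelled and 3.00, 1.87 and 1.79 FPKM in Mef2c-labelled libraries (difference 3.68, SE 0.14, limma adjusted p 1.27e-10), with 23.0 to 29.9 FPKM in wild type. Mtmr9, a phosphatase-family gene, was at 13.6, 13.7 and 13.7 FPKM in Mef2d-labelled and 97.4 to 107 FPKM in Mef2c-labelled libraries (difference -2.81, SE 0.11), with wild type at 10.97 to 15.2 FPKM. Rpl30, Polr2k and Pbx4 were higher than in Mef2c-labelled libraries by 1.75, 1.66 and 1.54, and Xkr6, Ifi44l and Hmga1b lower by -2.54, -2.93 and -2.57. Of these 8 genes, Slfn8 and Pbx4 also passed against wild type. Tspoap1 and Rps3a1, described above, differed from Mef2c-labelled libraries by 2.61 and -1.94 and from wild type in the same direction.

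Treg identity genes moved in both directions. Of 21 tested, 5 rose and 3 fell, beside 13.9% and 7.95% of all genes (5 and 2 without Mef2d replicate 1, with 2 risen when wild-type replicate 3 was left out), and the median log2 change was -0.062. The rises were of Ikzf2, Ikzf4, Plagl1, Entpd1 and Gpr174. Ikzf4, which encodes Eos, a partner of Foxp3 in gene silencing, went from 28.8, 29.4 and 25.2 to 35.4, 36.6 and 38.02 FPKM (log2 0.39, SE 0.08, limma adjusted p 0.00516). Entpd1, which encodes the ATP-degrading enzyme CD39, went from 8.48, 8.12 and 7.63 to 12.5, 11.1 and 12.7 FPKM (log2 0.53, SE 0.12, adjusted p 0.00787). Besides Lrrc32, Socs2 and Sh2d1a fell, both adaptors of cytokine or receptor signalling. Ctla4, the inhibitory receptor that removes CD80 and CD86, was at 203, 246 and 176 FPKM in wild type and 130.4, 169 and 189 FPKM in Mef2d-labelled libraries, overlapping values that did not pass (adjusted p 0.266).

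Effector Treg genes that passed were all lower. Of 30 tested, 0 rose, 8 fell and 22 did not pass, beside 7.95% of all genes that fell, 9 of the 30 had a log2 change above 0, and the median log2 change was -0.24. The count was 5 without Mef2d replicate 1, 4 without replicate 2 and 3 without wild-type replicate 3. Of all 12223 genes 481, 532 and 362 fell in those fits. Lgals1, which encodes galectin-1, went from 256, 222 and 303 to 156, 144 and 194 FPKM (log2 -0.66, SE 0.15, limma adjusted p 0.00677). Anxa2, a membrane-binding annexin, went from 38.5, 27.4 and 46.4 to 21.05, 14.5 and 23.6 FPKM (log2 -0.88, SE 0.19), and Fgl2, a secreted mediator of Treg suppression, from 13.9, 12.5 and 13.9 to 9.75, 8.03 and 8.72 FPKM (log2 -0.56, SE 0.14). Havcr2, which encodes TIM-3, went from 2.78, 2.18 and 2.20 to 1.53, 1.11 and 1.48 FPKM. Its difference from the other labels passed (log2 -0.56, SE 0.09, adjusted p 0.00158), as did that of Fgl2 (log2 -0.53, adjusted p 0.00868), whereas those of Lgals1 and Anxa2 did not (adjusted p 0.348 and 0.0884). Icos, a costimulatory receptor of activated T cells, went from 84.9, 79.3 and 96.1 to 61.4, 62.6 and 68.6 FPKM (log2 -0.43, SE 0.11, adjusted p 0.0172) and did not pass without Mef2d replicate 1 (adjusted p 0.0655), Mef2d replicate 2 (adjusted p 0.0548) or wild-type replicate 3 (adjusted p 0.0926). Il10, a suppressive cytokine, was at 7.48, 13.9 and 8.94 FPKM against 4.47, 6.38 and 9.82 FPKM and did not pass (adjusted p 0.302). Of 18 resting T cell genes, 2 rose and 1 fell, beside 13.9% and 7.95% of all genes. Without Mef2d replicate 2 or wild-type replicate 3, 0 rose. The fall was of Igfbp4, a binding protein of insulin-like growth factors, from 111, 131 and 103 to 45.3, 63.7 and 80.6 FPKM (log2 -0.88, SE 0.15, adjusted p 0.00186).

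Helper T cell genes followed. Of 14 tested Th1 genes 4 rose and 0 fell, beside 13.9% of all genes that rose, and 2 rose without Mef2d replicate 1, Mef2d replicate 3 or wild-type replicate 3. In those fits 878, 1385 and 715 of all 12223 genes rose. Besides Il18r1, Il18rap and Tnf were among the 4 Th1 genes that rose. Il18rap encodes the accessory chain of the same receptor, and Tnf a cytokine gene. The Th2 list (7 tested) and the IL-2 and STAT5 list (15 tested) gave 1 rise and 1 fall each. Over all genes 13.9% rose and 7.95% fell. Of 32 immediate early and NFAT or NF-kB target genes 3 rose and 0 fell, 1 and 0 without Mef2d replicate 1, Mef2d replicate 3 or wild-type replicate 3. Dusp5, a phosphatase that restrains ERK, was the firmest of them, at 22.3, 26.8 and 25.7 FPKM in wild type and 34.5, 29.3 and 35.0 FPKM in Mef2d-labelled libraries (log2 0.39, SE 0.08, adjusted p 0.00498).

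Interferon response genes were mixed in size and direction. Of 25 tested 6 rose and 1 fell, beside 13.9% and 7.95% of all genes, but 1 and 1 without Mef2d replicate 1, beside 7.18% and 3.94%. Oasl2, an interferon-induced antiviral gene, went from 2.39, 4.81 and 6.34 to 0.469, 0.262 and 0.605 FPKM (log2 -1.87, SE 0.25, limma adjusted p 0.000264). Mef2c-labelled libraries were as low at 0.361 FPKM on average, and the other labels were at 5.36 to 7.04 FPKM. The rises were small by comparison, such as Ifit2 at 0.39 (SE 0.09), which did not pass without Mef2d replicate 1 (adjusted p 0.0508). The counts were 2 without wild-type replicate 1 or wild-type replicate 3 and 3 without Mef2d replicate 3.

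Cell cycle genes gave a count that changed with the libraries used. Of 38 tested 0 rose and 22 fell, beside 7.95% of all genes that fell, and all 38 had a log2 change below 0, with a median of -0.59. The count that fell was 4 without Mef2d replicate 1 (3.94% of all genes fell), 7 without replicate 2, and 6 and 2 where wild-type replicate 1 or 3 was left out, and 2 in a fit of the 6 libraries alone. Of all 12223 genes 532 fell without Mef2d replicate 2 and 632 and 362 without wild-type replicate 1 or 3. In the fit of the 6 libraries alone 618 fell. Mcm2, a subunit of the replicative helicase, was the lowest in p, at 48.2, 38.8 and 54.5 FPKM in wild type and 31.4, 29.6 and 30.9 FPKM in Mef2d-labelled libraries (log2 -0.59, SE 0.11, limma adjusted p 0.00219). Wild-type replicate 3 was the highest and replicate 2 the lowest wild-type library for Mcm2, Mcm3, Mcm6 and Mcm7. Against the other deletion labels 0 rose and 1 fell of the 38.

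Chromatin genes of the list that passed were all higher. Of 18 tested genes for H3K4 methylation and large chromatin proteins 15 rose and 0 fell, beside 13.9% of all genes that rose, and the median log2 change was 0.39. The count was 9 without Mef2d replicate 1, 8 without wild-type replicate 3 and 10 with length and GC trends taken out, where 10.8% of all genes rose. Their median exon length was 12705.5 bases, in the class where 33.6% of all genes rose. Kmt2c, a methyltransferase of enhancers, went from 9.55, 11.2 and 7.94 to 20.4, 18.1 and 17.0 FPKM (log2 0.89, SE 0.16, limma adjusted p 0.00191). Ash1l and Tet2 rose by 0.63 and 0.57 (SE 0.11 for both). Against the other deletion labels 0 of the 18 passed.

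Over the lists of energy metabolism and protein synthesis together most genes tested did not pass, and more of those that did were lower than higher. Over all genes 13.9% were higher and 7.95% lower. Of all 12223 genes, 1345 were lower with median-of-ratios scaling. Without Mef2d replicate 1 or 2, 481 and 532 were lower and 878 and 1112 higher. Without wild-type replicate 1 or 3, 632 and 362 were lower. With length and GC trends taken out 10.8% were higher and 8.39% lower. Among glycolysis genes alone most passed (8 of 20 did not), and among cholesterol synthesis genes more rose than fell. Of 34 nuclear genes of oxidative phosphorylation 0 rose and 8 fell (5 without Mef2d replicate 1 or replicate 2, 4 without wild-type replicate 3, and 15 with median-of-ratios scaling), with a median of -0.23. Sdhd, an anchor subunit of succinate dehydrogenase, went from 56.7, 51.8 and 67.1 to 38.5, 36.0 and 40.6 FPKM (log2 -0.59, SE 0.10, limma adjusted p 0.00124). Of 20 glycolysis genes 4 rose and 8 fell (2 and 5 without Mef2d replicate 1, and 1 risen without replicate 2). Slc2a3, a glucose transporter, rose from 13.2, 13.1 and 13.3 to 23.8, 21.2 and 19.3 FPKM (log2 0.65, SE 0.08, adjusted p 0.000114), while the enzyme genes Pgam1, Eno1 and Ldha fell by 0.50, 0.40 and 0.40 on the log2 scale. Of 42 cytosolic ribosomal protein genes 0 rose and 9 fell, 3 without Mef2d replicate 1, wild-type replicate 1 or wild-type replicate 3, 4 without Mef2d replicate 2 and 16 with median-of-ratios scaling. Rplp0, whose near-identical copy is described above, is among the 9. Of 24 cholesterol synthesis genes 4 rose and 2 fell, 3 and 0 without Mef2d replicate 1 and 2 and 5 with length and GC trends taken out, led by Hsd17b7, a sterol reductase gene that went from 1.98, 1.56 and 1.92 to 4.23, 4.13 and 3.45 FPKM (log2 0.81, SE 0.13, adjusted p 0.000842) and also passed against the other labels (log2 0.60, adjusted p 0.00153). Of 17 heat shock and chaperone genes 0 rose and 2 fell.

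**Figure D5:**
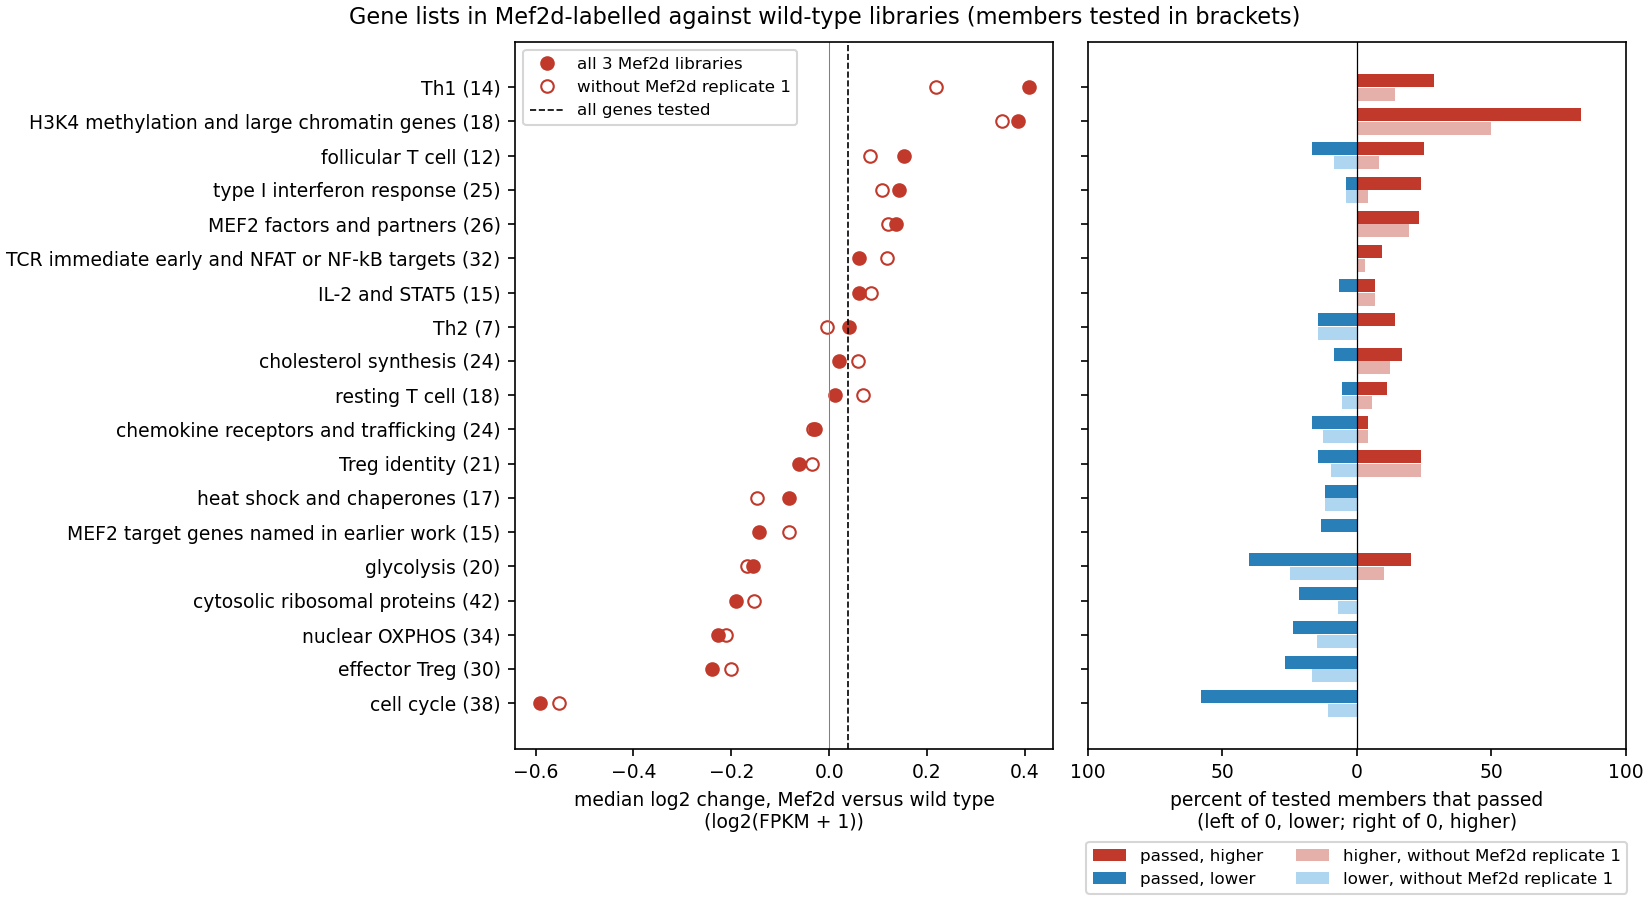
Gene lists against wild type, with the number of members tested in brackets. The left panel gives the median log2 change with all 3 Mef2d-labelled libraries (filled) and without replicate 1 (open) beside the median of all genes (dashed), and the right panel gives the percent of members that passed. The cell cycle list lies farthest to the left at -0.59 and its bar shortens from 22 to 4 of 38 genes without replicate 1.

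Markers of other T cell and innate lineages were also measured. Over all genes 13.9% rose and 7.95% fell against wild type, and 2.9% were lower than in the other labels. Among 7 tested gamma-delta T cell and NKT markers 0 rose and 3 fell (1 without Mef2d replicate 2), and their sum was 89.6, 84.5 and 53.0 FPKM in wild type, 49.3, 32.8 and 43.7 FPKM in Mef2d-labelled libraries and 55.9 to 128 FPKM in the other 12. Tcrg-C1, a constant segment of the gamma chain, went from 35.8, 31.9 and 18.6 to 13.0, 10.4 and 13.3 FPKM (log2 -1.12, SE 0.22, limma adjusted p 0.00354), and differed from the other labels by -1.06 (SE 0.17, adjusted p 0.00145). Klrb1c, the NK1.1 receptor gene, was the 1 gene that fell among 14 markers of CD8 T and NK cells, from 4.40, 4.81 and 3.29 to 1.01, 0.742 and 0.474 FPKM (log2 -1.57, SE 0.28, adjusted p 0.00196). Mef2c-labelled libraries were as low for Klrb1c, at 0.801 FPKM on average. Of 10 pan-T cell markers 0 rose and 3 fell, all on chromosome 9: Cd3g, Cd3d and Thy1. Cd3g went from 522, 538 and 524 to 380.1, 339 and 343 FPKM (log2 -0.58, SE 0.07, adjusted p 0.000108), and the other 12 libraries lay at 397 to 503.6 FPKM (difference -0.39, SE 0.06, adjusted p 0.0004). Plasma cell markers gave 0 calls of 9 against wild type and 3 lower against the other labels, with Igha, the IgA heavy chain, at 350.1, 149.7 and 195 FPKM in Mef2d-labelled and 319 to 1136 FPKM in wild-type libraries. Erythroid markers summed to 25.9, 178 and 390.1 FPKM in wild type and 18.6, 13.3 and 55.8 FPKM in Mef2d-labelled libraries, and 1 of 6 fell (Hbb-bt), 0 without Mef2d replicate 1 and 5 without wild-type replicate 1. Myeloid and dendritic cell markers summed to 28.3, 127 and 230 FPKM against 354, 25.7 and 186 FPKM, with 1 of 14 higher.

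3 genes passed without Mef2d replicate 1 but not with it and had the largest changes of that kind. C1qa, a complement gene of macrophages, was at 3.31, 4.50 and 5.50 FPKM in wild type and at 2.13, 0.242 and 0.812 FPKM in Mef2d-labelled libraries (limma adjusted p 0.0524 with all libraries and 0.0494 without replicate 1). Ifi204 and Ifi206, neighbouring interferon-inducible genes of near-identical sequence, split the Mef2d replicates. Ifi204 was at 0.827, 2.68 and 5.09 FPKM in replicates 1, 2 and 3 and at 0.580 to 1.32 FPKM in wild type. Ifi206 was at 67.7, 28.1 and 21.2 FPKM in the same libraries and at 41.0 to 59.5 FPKM in wild type. Replicate 1 was thus on the wild-type side for both genes, and their levels are uncertain because reads can be shared.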

How the data were processed

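The values, taken as FPKM, were normalised by the authors before they deposited the table of 18 libraries. Their unit is named nowhere and was read from the values, because multiplying by exon length gives peaks at whole reads, and RPKM cannot be told apart from it. Per the submitters' processing notes STAR, HTSeq and mm10 were used; versions, strand setting and annotation release are not given in the sources used here. Gene models are GENCODE M21 (GRCm38). Of 35275 identifiers 34490 had a symbol.

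The 12223 genes that reached 1 FPKM in 3 or more libraries were tested on log2(FPKM + 1) with limma 3.58.1 in R 4.3.3, a mean per group over 18 libraries, a variance trend and 12 residual degrees of freedom, then Benjamini-Hochberg adjustment at 0.05. Folds understate changes of low genes. The fit was also run on simulated data without library differences in B cell RNA or ribosomal carry-over. That run cannot show how the fit handles such differences here. Copies were aligned with Biopython 1.88.

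Replicate numbers of the Mef2d and Mef2c groups deviated together (r 0.31 to 0.40 across genes), those of Mef2d and wild type did not (r -0.36, -0.32 and 0.16). Named genes were the MEF2 genes, the 12 largest changes each way (5 for other comparisons, 4 near Mef2d; without pseudogenes, predicted genes, receptor segments and Y-linked genes), up to 4 members that passed in each list, and 3 genes called only without Mef2d replicate 1. Alternatives covered the pseudocount, filter, scaling, samples, variance model, weights, B cell RNA, length and GC, and each replicate. The comparison, members and lists were chosen with earlier results of these data known. Sequences come from RefSeq and GENCODE tables. Some genes and 1 list are not reported here.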

Additional observations from a re-analysis of the deposited data

How the results depend on the processing

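Against wild type, the count of 2677 genes was 1813 in a fit of the 6 libraries alone, 1474 without the 3 libraries with most B cell RNA (a marker mean log2 more than 1 above the median), 2347 after length and GC correction, 4046 with array weights and 1077 to 2812 when each replicate was left out in turn, the lowest without wild-type replicate 3. Against the other deletion labels 696 became 459 with a minimum of 5 FPKM, where fewer genes were tested, and 350 to 779 with a replicate left out. Against Mef2c-labelled libraries 374 became 246 in a fit of the 2 groups alone and 243 to 370 with a replicate left out. The cause of the other shifts was not tested. With the replicate block, an effect per replicate number shared by all 6 groups, the 3 counts were 2485, 605 and 337. The block ended the call against wild type of Icam1 and Tnf. It changed no call of a gene named for the comparison with Mef2c-labelled libraries. A pairing of Mef2d and Mef2c replicates alone was not fitted. Satb1, which rose by 0.23 against wild type, changed sign after length and GC correction (-0.027). Of 96 named genes that passed against wild type, 76 kept the call without Mef2d replicate 1, 74 without wild-type replicate 3 and 88 after length and GC correction. Depth is an estimate, and a level of 0 is 0 reads at that depth.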

Other observations

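Joining segments of the T cell receptor alpha chain (Traj genes, chromosome 14) were higher in Mef2d-labelled than in wild-type libraries. Of 58 tested 24 rose and 0 fell, beside 13.9% of all genes that rose. Without Mef2d replicate 1, 9 rose, beside 7.18% of all genes, and with all libraries 53 of the 58 had a log2 change above 0. Traj18, the segment used by invariant NKT cells, was at 2.94, 4.57 and 4.90 FPKM in wild type and at 15.5, 16.2 and 15.8 FPKM in Mef2d-labelled libraries (log2 1.73, SE 0.25, limma adjusted p 0.000453). Traj12 was at 5.02, 6.07 and 5.58 FPKM in wild type and at 50.5, 27.1 and 32.6 FPKM in Mef2d-labelled libraries (log2 2.48, SE 0.44, adjusted p 0.00185), and Traj1 at 66.5, 70.7 and 46.0 FPKM against 186, 137 and 125 FPKM (log2 1.28, SE 0.25, adjusted p 0.00311). Against the other deletion labels 0 of the 58 passed. Traj segments were singled out after their values were seen, they are short, and their FPKM is therefore sensitive to how reads that cross them are counted.

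The first 10 Mb of chromosome 14 held the highest share of calls among the 208 windows of 10 Mb with at least 20 tested genes: 16 of 27 genes (59.3%) passed against wild type and 13 (48.1%) against the other deletion labels. Most carry predicted-gene symbols such as Gm3636 and Gm3411, a family of near-identical copies whose levels are uncertain. The histone cluster between 20 and 30 Mb of chromosome 13 followed against wild type, with 32 of 59 genes (54.2%).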
